A study of Mus musculus with 15 samples.

Results

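The cholesterol and fatty acid synthesis genes described here are a fixed list of 31 genes. It covers the mevalonate pathway, the squalene and lanosterol steps, the conversion of lanosterol to cholesterol, the control of these genes by sterol regulatory element binding proteins (SREBPs), and the synthesis, elongation and desaturation of fatty acids. The list was chosen by gene function and not by these measurements, although results of the same data were known when it was drawn up. A gene was measured by the probe sets that the array annotation gives to it alone, and where several did, the one brightest on average across the 15 arrays was used. Of the 31 genes, 30 were measured, among 18193 genes in all. No probe set was listed for Acat2, the cytosolic thiolase that supplies acetoacetyl-CoA to the mevalonate pathway.

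Expression was measured on one-colour 3' expression arrays in cells of C57Bl/6 mice at steady state, with no genetic change named in any group. The sorted bone marrow progenitors, 2 arrays each and titled WT, were precursors of classical dendritic cells (pre-cDC; CD117 low, CD135+, CD11c+), common dendritic cell progenitors (CDP; CD117 intermediate, CD135+), granulocyte-macrophage progenitors (GMP; CD117 high, CD16/32+, CD135-) and common myeloid progenitors (CMP; CD117 high, CD135+, CD16/32-). A pre-cDC sample titled Spl had 1 array. Whole bone marrow grown for 7 days gave 3 further samples of 1 array each. These were the non-adherent CD11c+ fraction and the adherent fraction of cultures with 20 ng/ml GM-CSF, and the adherent fraction of cultures with 20 ng/ml M-CSF. Bone marrow monocytes, enriched by negative selection and over 90% positive for CD11b and Ly6C per the labels, were sampled at 0, 24 and 48 h of exposure to 20 ng/ml GM-CSF, with 1 array per time. Whether the 2 arrays of a progenitor group stand for different mice is not stated in the labels, and the p-values reflect only how far these samples spread, which may be technical. The cultures and the monocytes are mixed populations, and in bulk RNA a change in the share of a cell type cannot be told apart from a change in RNA per cell.

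Cells make cholesterol from acetyl-CoA through mevalonate, isoprenoid pyrophosphates, squalene and lanosterol. When membrane sterol is low, SCAP escorts SREBP precursors out of the endoplasmic reticulum to be cleaved, and the released factor enters the nucleus. SREBP2, encoded by Srebf2, mainly drives the sterol genes and SREBP1, encoded by Srebf1, the fatty acid genes. INSIG1 holds SCAP back when sterols are plentiful, and its own gene is a known SREBP target. In macrophages and dendritic cells, oxysterols made by enzymes such as CH25H restrain SREBP cleavage and activate liver X receptors (LXRs), which turn on cholesterol export genes such as Abca1.

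The promoter sequences below belong to some of the members called in pre-cDC against CDP, given as examples: Hmgcs1, Msmo1 and Insig1 rose, and Elovl6 fell. Each is the stretch of 250 bases upstream of the RefSeq start site in mouse build GRCm38.p6, and so lies before the transcript and not in an exon. Capitals mark the core of a sterol regulatory element (TCACNCCAC) and the CCAAT box (CCAAT) on either strand, the latter a known partner site of SREBPs. The windows are chr13:119690101-119690350 on the plus strand for Hmgcs1, chr8:64733579-64733828 on the minus strand for Msmo1, chr5:28071162-28071411 on the plus strand for Insig1 and chr3:129532136-129532385 on the plus strand for Elovl6.
Hmgcs1: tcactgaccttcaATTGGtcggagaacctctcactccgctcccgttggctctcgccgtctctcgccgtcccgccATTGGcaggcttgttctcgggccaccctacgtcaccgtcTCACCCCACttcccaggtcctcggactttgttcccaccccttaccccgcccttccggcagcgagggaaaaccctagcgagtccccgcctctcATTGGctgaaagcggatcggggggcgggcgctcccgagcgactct
Msmo1: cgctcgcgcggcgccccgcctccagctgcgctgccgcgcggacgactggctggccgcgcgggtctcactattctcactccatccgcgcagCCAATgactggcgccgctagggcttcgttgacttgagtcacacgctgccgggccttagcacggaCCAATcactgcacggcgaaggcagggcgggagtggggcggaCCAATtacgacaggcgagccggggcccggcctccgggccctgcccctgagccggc
Insig1: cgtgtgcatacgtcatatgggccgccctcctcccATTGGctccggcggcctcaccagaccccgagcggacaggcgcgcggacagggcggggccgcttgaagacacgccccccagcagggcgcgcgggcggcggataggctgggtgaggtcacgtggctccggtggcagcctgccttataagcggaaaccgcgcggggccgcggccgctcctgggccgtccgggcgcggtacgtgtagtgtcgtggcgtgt
Elovl6: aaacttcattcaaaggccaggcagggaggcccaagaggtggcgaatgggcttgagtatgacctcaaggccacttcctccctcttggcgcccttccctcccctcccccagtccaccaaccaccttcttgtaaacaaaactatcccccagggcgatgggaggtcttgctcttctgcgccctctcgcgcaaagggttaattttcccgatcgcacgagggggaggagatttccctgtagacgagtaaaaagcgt

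RefSeq gave such a window for 24 of the 31 genes, and 30 windows in all, since some genes have several start sites. The sterol regulatory element core was found in 1 of these 24 genes, Hmgcs1, where TCACCCCAC begins 137 bases before the start site. That is 3.33% of the 30 windows of these genes, and the core was present in 1.01% of the 21263 windows of protein-coding genes. The CCAAT box was found in 19 of these 30 windows (63.3%), and in 35.4% of the windows of protein-coding genes. Msmo1 holds 3 copies and Hmgcs1 3, Insig1 holds 1, and the Elovl6 window holds neither sequence in capitals. The CCAAT box was not limited to genes that rose in pre-cDC against CDP. The window of Fasn, which fell, also holds it, as do those of Mvk and Hsd17b7, which did not pass the test. The GC box (GGGCGG) was found in 22 of the 30 windows (73.3%) against 42.6% of protein-coding windows, and the E-box (CACGTG) in 5 of 30 (16.7%) against 6.63%. All 4 motifs were searched on both strands, and by their letters the last bases of the sterol regulatory element can also open an E-box. These matches describe the sequence and say nothing of binding.

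The deposited values are linear intensities with 4 different scales. Array medians lay between 15.95 and 17.44 for the 8 progenitor arrays, between 24.09 and 25.66 for the cultures and between 77.73 and 80.53 for the monocytes, and the Spl array had a median of 74.17, so levels were compared only within the first 3 sets. Of the 30 members, 27 lay above the array median on all progenitor arrays, 30 on all culture arrays and 28 on all monocyte arrays. The 2 arrays of a progenitor group correlated across genes at 0.9953 to 0.9968, and 0 members differed 2-fold between them. Markers of the sorted cells went with the labels. The summed intensity of 10 dendritic cell markers was 24180 to 26190 in pre-cDC, 8664 to 8704 in CDP, 1721 to 1733 in GMP and 3614 to 3705 in CMP. Flt3, Kit and Itgax, among the marker genes, encode CD135, CD117 and CD11c, which were used in the gates.

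Across the 4 progenitor groups, 21 of the 30 members differed at an adjusted p below 0.05 in limma's moderated F test, where 48.2% of all genes did. The highest group mean lay in pre-cDC for 11 members, in CDP for 5, in GMP for 8 and in CMP for 6. This was 36.7%, 16.7%, 26.7% and 20% of the members, and the same shares over all genes were 33.5%, 17.1%, 26.8% and 22.5%. The summed intensity of all 30 members was 8352 to 8748 in pre-cDC, 8453 to 8524 in CDP, 8159 to 8457 in GMP and 7853 to 8440 in CMP, ranges that overlap except between CDP and CMP. This sum of intensities, to which the brightest probe sets add most, therefore differed little between groups, while its parts did. The 6 mevalonate pathway genes summed to 1403 to 1598 in pre-cDC and 897.8 to 954.7 in CMP. The 4 desaturase genes went the other way, with 1072 to 1235 in pre-cDC and 1661 to 1797 in CMP.

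**Figure D1:**
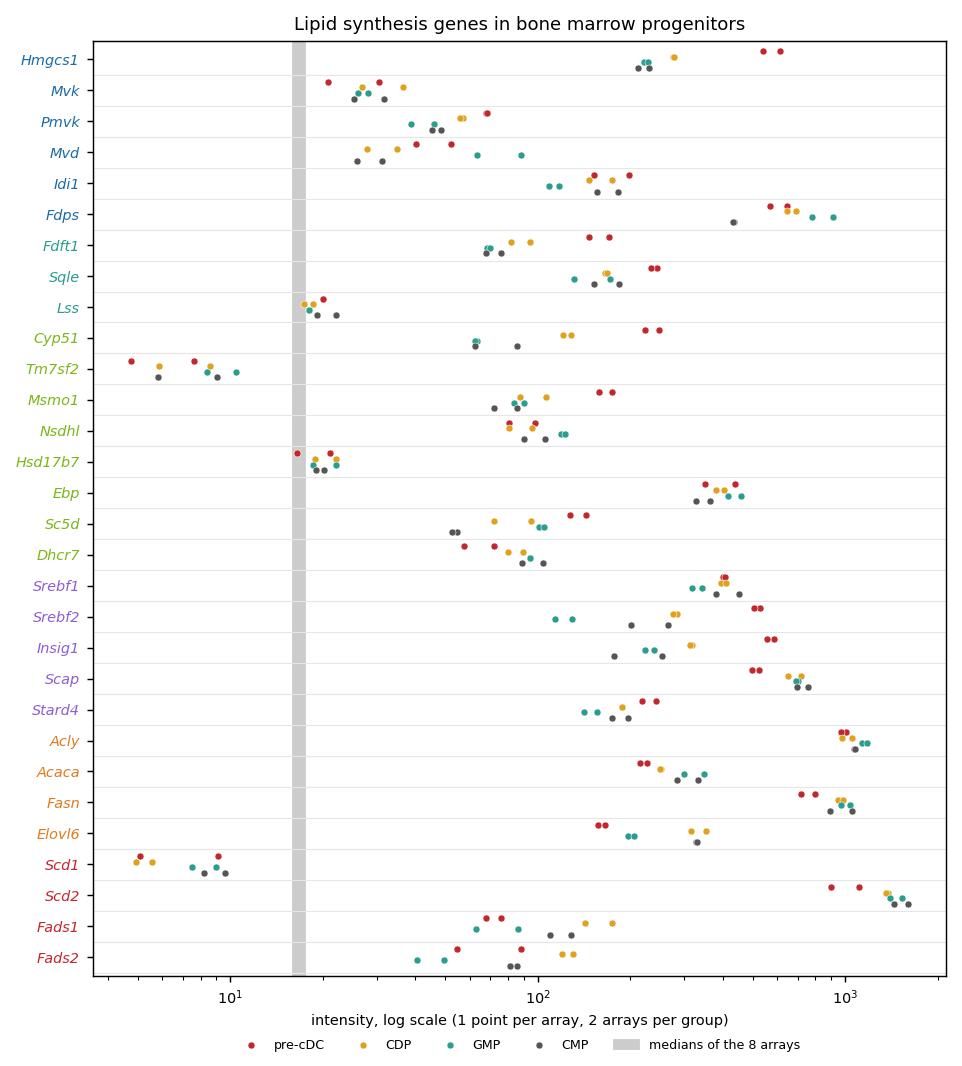
Intensity of the 30 measured genes on the 8 progenitor arrays, 1 point per array and 2 arrays per group, on a log axis, with genes coloured by their step in the pathway and the grey band marking the range of array medians from 15.95 to 17.44. The pre-cDC points of Hmgcs1, at 615.4 and 541.7, stand to the right of the other groups, and those of Elovl6, at 156.9 and 164.9, to the left.

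In pre-cDC against CDP, the sterol enzymes that passed the test were all higher and the fatty acid genes that passed it were all lower. Of the 17 sterol synthesis enzymes 6 rose and 0 fell, while 11 did not pass, and of the 8 genes of fatty acid synthesis and desaturation 0 rose and 5 fell. The difference between these groups of genes was not tested. Over all 30 members 8 rose and 6 fell, where 14.4% of all genes rose and 18.8% fell. The median log2 difference was 0.10 for the sterol enzymes and -0.39 for the fatty acid genes, and -0.01 for all genes. All log2 differences, and all levels given as times another, are on the scale log2(intensity + 32), which understates the change of dim genes.

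Hmgcs1, the synthase that makes HMG-CoA at the entry of the mevalonate pathway, read 615.4 and 541.7 in pre-cDC and 276 and 276.6 in CDP. The pre-cDC arrays were both higher, without overlap, and the log2 difference was 0.98 (SE 0.105, limma adjusted p = 8.66e-06). Its other 4 probe sets on the array, all brighter than the array medians, gave log2 differences of 0.33 to 1.06. At the next committed step, Fdft1, the squalene synthase that directs farnesyl pyrophosphate into sterols, read 170.5 and 146.9 in pre-cDC and 94.35 and 81.9 in CDP. Its log2 difference was 0.67 (SE 0.11, limma adjusted p = 0.000358). Sqle, the squalene epoxidase and a slow step of the pathway, read 245.2 and 233.6 in pre-cDC and 165.8 and 167.9 in CDP, again without overlap. Its log2 difference was smaller, 0.45 (SE 0.127, limma adjusted p = 0.0147), and the call was lost in 4 of 8 fits with 1 array left out.

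Of the enzymes that turn lanosterol into cholesterol, 3 of 8 rose in pre-cDC. Cyp51, the lanosterol demethylase, read 248.2 and 223.5 in pre-cDC and 128.4 and 120.7 in CDP (log2 difference 0.77, SE 0.12, limma adjusted p = 0.000209). Its other bright probe set gave a smaller log2 difference of 0.36. Msmo1, the sterol methyl oxidase that acts next but one, read 174 and 158.4 in pre-cDC and 106.4 and 87.52 in CDP (log2 difference 0.62, SE 0.116, limma adjusted p = 0.000863). Sc5d, the lathosterol oxidase, read 143.2 and 127 in pre-cDC and 94.96 and 71.93 in CDP (0.54, SE 0.117, limma adjusted p = 0.00272), with 0.12 at its other bright probe set and 0.17 at a dim one. For these 3 genes both pre-cDC arrays lay above both CDP arrays. Dhcr7, the reductase of the last step, read 72.2 and 57.7 in pre-cDC and 89.49 and 80.29 in CDP, a log2 difference of -0.27 that did not pass the test. Ebp, the sterol isomerase, averaged 393.7 ± 61 in pre-cDC and 392.3 ± 15.6 in CDP (SD, n = 2 each), close to equal.

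The later mevalonate steps did not pass the test in this comparison. Pmvk, the phosphomevalonate kinase, read 67.92 and 68.33 in pre-cDC and 57.03 and 55.93 in CDP. Fdps, the farnesyl pyrophosphate synthase, read 646.2 and 568.1 in pre-cDC and 649.3 and 694.5 in CDP. Idi1, the isopentenyl isomerase, read 197.7 and 152.4 in pre-cDC and 174.8 and 147.2 in CDP. The groups overlapped for Idi1 but not for Pmvk or Fdps, whose differences were small. Mvd, the mevalonate decarboxylase, read 40.22 and 52.07 in pre-cDC and 34.76 and 27.81 in CDP, with a log2 difference of 0.30, and 0.90 at its other probe set.

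Among the control genes, Srebf2 read 528.9 and 507 in pre-cDC and 284.4 and 275 in CDP (log2 difference 0.82, SE 0.124, limma adjusted p = 0.000172), and its other probe set gave 0.81. Insig1, the sterol-sensing retention factor, read 586.6 and 558.2 in pre-cDC and 316.8 and 312.8 in CDP (log2 difference 0.80, SE 0.133, limma adjusted p = 0.000364). Both genes were thus higher on each pre-cDC array. Scap, the SREBP escort, fell by 0.40 on the log2 scale (SE 0.0958, limma adjusted p = 0.00538), with 523.5 and 499.5 in pre-cDC and 651.8 and 719.6 in CDP. Srebf1 had near-equal means of 403.9 ± 5.67 in pre-cDC and 402.1 ± 9.74 in CDP (SD, n = 2 each). Stard4, a cytosolic sterol carrier, read 219 and 242.9 in pre-cDC and 187.6 and 188 in CDP, a difference that did not pass the test.

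The fatty acid genes that fell in pre-cDC were led by Elovl6, the elongase that extends palmitate. Elovl6 read 156.9 and 164.9 in pre-cDC and 314.7 and 352.5 in CDP, 0.53 times the CDP level (log2 difference -0.92, SE 0.103, limma adjusted p = 1.31e-05). A further probe set of this gene gave -0.85 and another -0.15. The front-end desaturases of polyunsaturated fatty acid synthesis also fell. Fads1 read 75.9 and 67.89 in pre-cDC and 174.3 and 141.9 in CDP (log2 difference -0.87, SE 0.133, limma adjusted p = 0.00019), but its other bright probe set gave 0.10, so the fall was not seen by both. Fads2 read 87.99 and 54.56 in pre-cDC and 119.5 and 129.7 in CDP (-0.62, SE 0.14, limma adjusted p = 0.00368). Its 2 pre-cDC arrays stood well apart, yet both were below both CDP arrays.

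Scd2, a desaturase that makes monounsaturated fatty acids, read 898.5 and 1107 in pre-cDC and 1379 and 1354 in CDP (log2 difference -0.44, SE 0.104, limma adjusted p = 0.00486), with -0.11 at its other bright probe set. Fasn, the fatty acid synthase, read 798.7 and 717.9 in pre-cDC and 946.8 and 981.4 in CDP (-0.34, SE 0.101, limma adjusted p = 0.021). Acly, which supplies cytosolic acetyl-CoA to both pathways, averaged 991 ± 26 in pre-cDC and 1016 ± 50.7 in CDP (SD, n = 2 each) and did not pass the test. Acaca, the acetyl-CoA carboxylase, averaged 221.2 ± 8.07 in pre-cDC and 250.4 ± 1.51 in CDP, and Scd1 lay below the array median on every progenitor array.

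The RNA of proliferation genes and of other cell type markers also differed between pre-cDC and CDP. Of 19 proliferation genes 6 rose and 10 fell in pre-cDC, and their summed intensity was 28050 to 29990 in pre-cDC against 33990 to 34110 in CDP. The 6 primary granule markers summed to 174.4 to 232.2 in pre-cDC and 8727 to 10360 in CDP, with all 6 falling, and the 8 macrophage markers to 1175 to 1385 in pre-cDC and 237.3 to 253.5 in CDP, with 4 rising. The 9 stromal and adipocyte markers summed to 105.6 to 109.4 in pre-cDC and 314.9 to 400.5 in CDP. Only 1 of these 9 fell and 0 rose, and their median log2 difference was 0.006. The part of these shifts in the lipid gene differences was not tested.

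**Figure D2:**
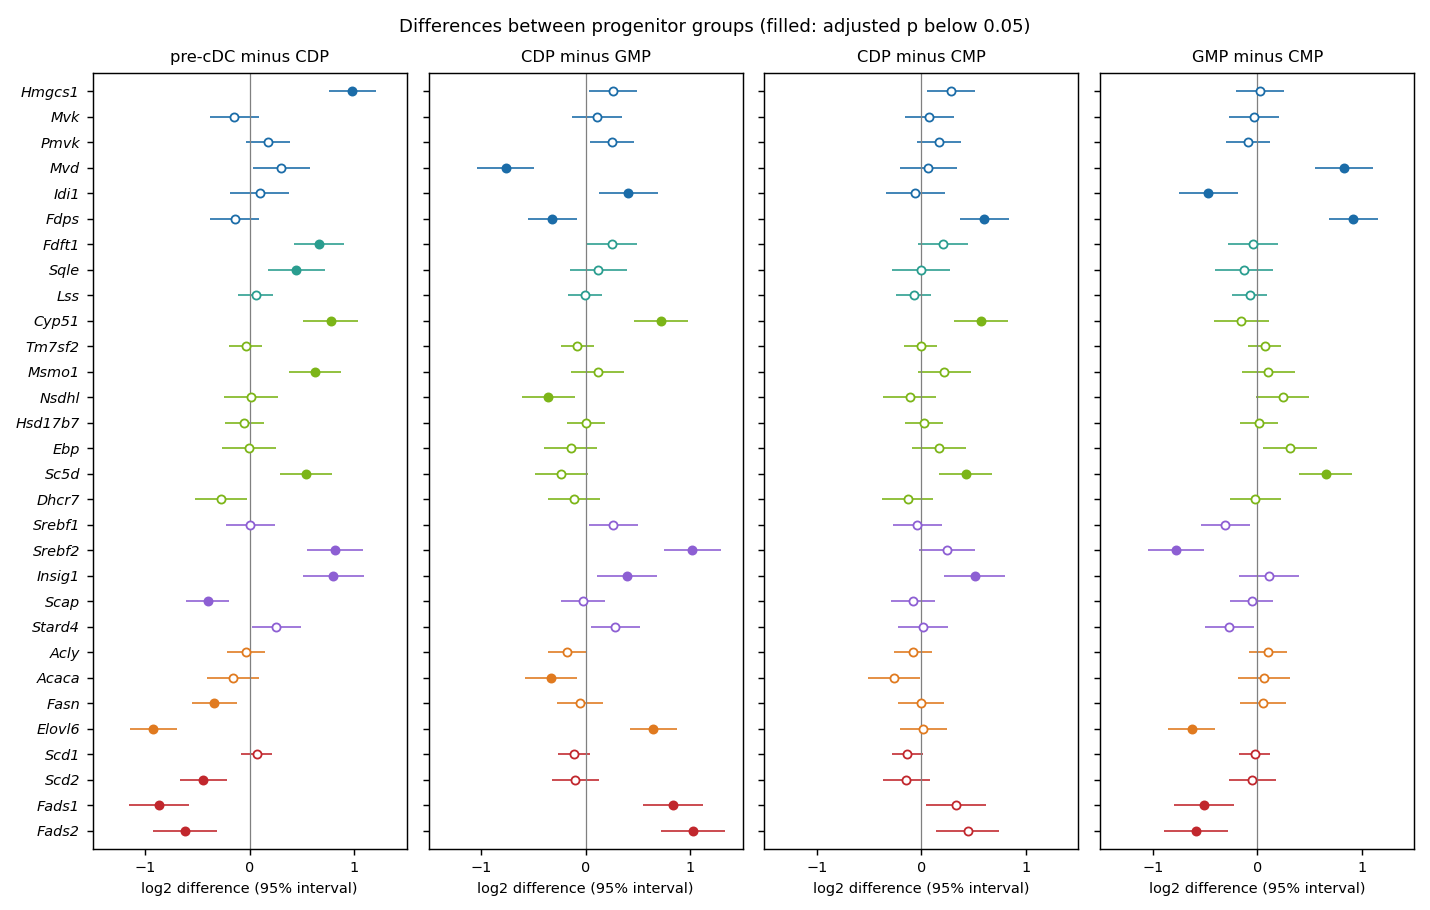
Log2 difference of each of the 30 measured genes in 4 comparisons of progenitor groups, with 95% intervals from the limma fit; filled points have an adjusted p below 0.05 and colours mark the step in the pathway. In pre-cDC minus CDP the filled points of sterol enzymes all lie to the right of 0 and those of fatty acid genes all to the left, from 0.98 for Hmgcs1 to -0.92 for Elovl6.

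In GMP against CMP, 3 members rose and 5 fell, where 7% of all genes rose and 9.76% fell. The 3 that rose were sterol enzymes. Fdps, the synthase of farnesyl pyrophosphate, read 916.5 and 777.4 in GMP and 434 and 430.6 in CMP, a level 1.89 times that in CMP (log2 difference 0.92, SE 0.107, limma adjusted p = 5.69e-05). Mvd, the decarboxylase that ends the mevalonate steps, read 63.62 and 88.26 in GMP and 25.74 and 31.16 in CMP (0.83, SE 0.126, limma adjusted p = 0.000481). Its other probe set gave 0.05, so this call rests on 1 of 2 probe sets. Sc5d read 101.1 and 104.4 in GMP and 54.66 and 52.72 in CMP (0.65, SE 0.117, limma adjusted p = 0.00161), with 0.15 at its other bright probe set and 0.06 at a dim one.

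Srebf2 fell in GMP, to 114.1 and 129.5 against 201.5 and 265 in CMP (log2 difference -0.78, SE 0.124, limma adjusted p = 0.000679). The fatty acid genes Elovl6, Fads2 and Fads1 fell by 0.63, 0.59 and 0.51 on the log2 scale (limma adjusted p = 0.00087, 0.0109 and 0.0182), with -0.13 at the other bright probe set of Fads1. Elovl6 showed the tightest replicates of these, with 197.2 and 205.4 in GMP and 327.3 and 330 in CMP. Idi1, the isomerase that makes dimethylallyl pyrophosphate, read 117.3 and 108.7 in GMP and 156 and 182 in CMP (-0.47, SE 0.131, limma adjusted p = 0.0257). For all 8 called genes both GMP arrays lay on 1 side of both CMP arrays. Without GMP replicate 1 the count of called members was 5 in place of 8, and after quantile normalization 4 rose and 4 fell. Primary granule markers summed to 30110 to 30690 in GMP and 10720 to 11370 in CMP, neutrophil markers to 2805 to 3361 in GMP and 174.7 to 205.4 in CMP, and mast cell and basophil markers to 922.5 to 1114 in GMP and 320.9 to 323.7 in CMP. Of the 6 neutrophil markers 3 rose and 1 fell in GMP, with a median log2 difference of 0.45. All 6 primary granule markers rose, and of 6 mast cell and basophil markers 4 rose and 1 fell. The part of these markers in the lipid gene differences was not tested.

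In CDP against CMP, 4 members rose and 0 fell at an adjusted p below 0.05, where 7.68% of all genes rose and 6.75% fell. Fdps read 649.3 and 694.5 in CDP and 434 and 430.6 in CMP (log2 difference 0.60, SE 0.107, limma adjusted p = 0.0021). Cyp51 read 128.4 and 120.7 in CDP and 62.7 and 85.48 in CMP (0.57, SE 0.12, limma adjusted p = 0.006). Insig1 and Sc5d rose by 0.51 and 0.42 on the log2 scale (limma adjusted p = 0.0212 and 0.028). The other bright probe sets gave smaller log2 differences, 0.18 for Cyp51 and 0.105 for Sc5d. The 4 genes belong to the isoprenoid step, the lanosterol steps and the sterol sensor. Of the fatty acid genes, Fads2 lay just outside the threshold at 0.44 (SE 0.14, limma adjusted p = 0.0535), and Fads1 was at 0.33 (limma adjusted p = 0.131), both with each CDP array above each CMP array. The count was 2 without CMP replicate 1, without CMP replicate 2 and without CDP replicate 1. Erythroid markers summed to 150.2 to 212.1 in CDP and 4063 to 5369 in CMP, and their part in these differences was not tested.

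In CDP against GMP, 7 members rose and 4 fell, where 15.9% of all genes rose and 12.1% fell. This comparison shares its GMP arrays with GMP against CMP and its CDP arrays with the other 2, so its values are not independent of theirs. Fads2 read 119.5 and 129.7 in CDP and 40.58 and 49.35 in GMP (log2 difference 1.03, SE 0.14, limma adjusted p = 0.000114). Srebf2 read 284.4 and 275 in CDP and 114.1 and 129.5 in GMP (1.02, SE 0.124, limma adjusted p = 4.19e-05). On the shifted scale Fads2 was 2.04 and Srebf2 2.03 times as high in CDP. Fads1, Cyp51, Elovl6, Idi1 and Insig1 also rose, by 0.84, 0.72, 0.65, 0.41 and 0.40 on the log2 scale. The other bright probe sets of Fads1 and Cyp51 gave less, 0.21 and 0.33.

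The 4 members lower in CDP than in GMP were Mvd, Nsdhl, Acaca and Fdps. Mvd fell by 0.76 (SE 0.126, limma adjusted p = 0.00052), while its other probe set went the other way at 0.16. Nsdhl, a sterol dehydrogenase of the demethylation steps, fell by 0.35 (SE 0.118, limma adjusted p = 0.0392). Acaca fell by 0.33 (SE 0.114, limma adjusted p = 0.0476) and Fdps by 0.32 (SE 0.107, limma adjusted p = 0.0434), and the other bright probe set of Acaca gave 0.28. The count of called members was 6 in place of 11 without GMP replicate 1, and 7 without GMP replicate 2, without CDP replicate 1 or without CDP replicate 2. After quantile normalization 5 rose and 6 fell. Scd2 did not pass the test, at -0.10, although its other bright probe set gave -1.001.

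Markers of other cell types also differed between CDP and GMP. Erythroid markers summed to 150.2 to 212.1 in CDP and 2543 to 4550 in GMP, and primary granule markers to 8727 to 10360 in CDP and 30110 to 30690 in GMP. Neutrophil markers summed to 261.2 to 360.9 in CDP and 2805 to 3361 in GMP, and mast cell and basophil markers to 101.6 to 137.8 in CDP and 922.5 to 1114 in GMP. Of the 6 neutrophil markers 1 rose and 3 fell in CDP, with a median log2 difference of -0.35, so that sum can rest on few genes. In the other lists 5 of 7 erythroid, 6 of 6 primary granule and 5 of 6 mast cell and basophil markers fell, and 0 rose. The part of these markers in the lipid gene differences was not tested.

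Srebf2 and Elovl6 ordered the groups differently. Srebf2 had means of 517.9 ± 15.5 in pre-cDC, 279.7 ± 6.68 in CDP, 121.8 ± 10.9 in GMP and 233.3 ± 45 in CMP (SD, n = 2 each), and its CDP and CMP means did not differ beyond the threshold. Elovl6 had means of 160.9 ± 5.63 in pre-cDC, 333.6 ± 26.7 in CDP, 201.3 ± 5.82 in GMP and 328.7 ± 1.92 in CMP. In Elovl6 the 2 CD135+ groups without CD11c, CDP and CMP, were the high ones. The 9 members that did not pass the F test were Mvk, Lss, Tm7sf2, Nsdhl, Hsd17b7, Ebp, Srebf1, Acly and Scd1, with adjusted p of 0.0708 to 0.954. Several of these, such as Tm7sf2 and Scd1, were close to or below the array median.

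In monocytes given GM-CSF, most members were higher at 24 and 48 h than at 0 h. With 1 array per time there is no replicate check and no test. Genes were instead counted if the difference reached 2-fold on the log2(intensity + 32) scale, provided that the larger intensity exceeded its array's median. At 24 h against 0 h, 11 of 30 members were counted higher and 0 lower, where 6.22% of all genes were counted higher and 7.29% lower. At 48 h against 0 h, 20 members were counted higher and 0 lower, against 7.4% higher and 6.19% lower over all genes. The median log2 difference of the members was 0.73 at 24 h and 1.14 at 48 h, and 0.00 for all genes at both times. The 30 members summed to 50020 at 0 h, 79650 at 24 h and 94780 at 48 h.

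**Figure D3:**
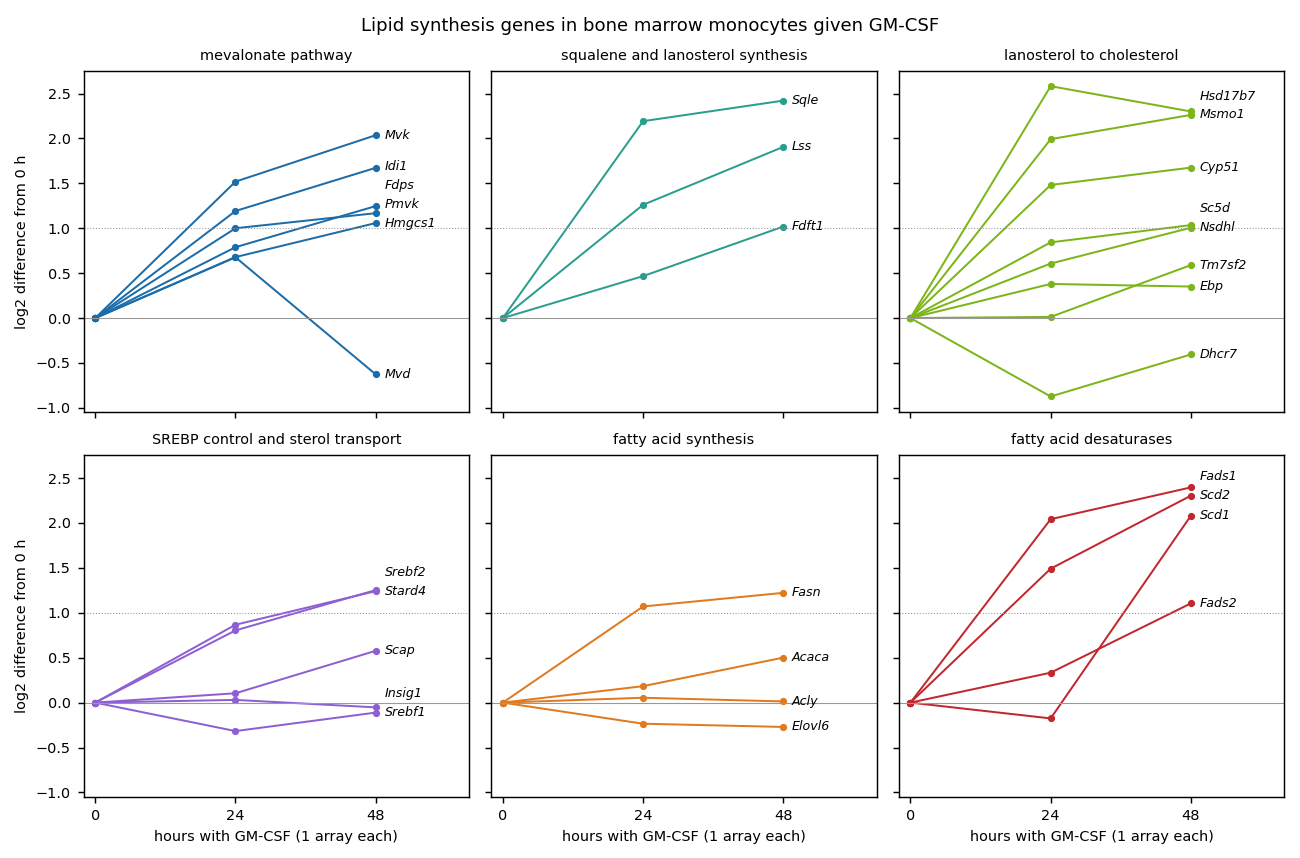
Log2 difference from 0 h of each of the 30 measured genes after 24 and 48 h with GM-CSF, 1 array per time, in panels by step of the pathway; the dotted line marks a 2-fold difference. Most lines climb by 24 h and climb less after it, up to 2.42 for Sqle at 48 h, while Mvd, Dhcr7, Elovl6, Insig1 and Srebf1 end below 0.

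In the mevalonate pathway, 5 of 6 genes were counted higher at 48 h than at 0 h. Mvk, the mevalonate kinase, read 217.9, 684.1 and 993.1 at 0, 24 and 48 h, but its other bright probe set gave log2 differences of -0.31 at 24 h and -0.57 at 48 h. Idi1 read 1810, 4175 and 5842, and Pmvk, the next kinase, 698, 1428 and 1609. Hmgcs1 read 3675, 5901 and 7686, and Fdps 1001, 1753 and 2421. These genes were higher at each later time, with the larger part of the log2 difference reached by 24 h for all 5. Mvd read 2559, 4110 and 1645, and was the 1 member counted lower at 48 h than at 24 h. Its other probe set gave a log2 difference of 0.33 for that interval, and 0.83 for 48 h against 0 h, where the one used gave -0.63, so the 2 probe sets did not show the same course.

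The 3 sterol enzymes with the largest differences at 48 h, Sqle, Hsd17b7 and Msmo1, act after mevalonate. Sqle read 1072 at 0 h, 5016 at 24 h and 5884 at 48 h, a level 5.36 times that at 0 h on the shifted scale. Msmo1 read 1075, 4372 and 5277, Cyp51 1323, 3753 and 4295, and Hsd17b7, a sterol ketoreductase, 133.4, 958 and 782.4. Lss, the lanosterol synthase, read 396.4, 995 and 1574. All 5 were counted at 24 h already. Fdft1, Sc5d and Nsdhl were counted only at 48 h, at log2 differences of 1.02, 1.04 and 1.01, and the other probe sets of Sc5d gave 0.26 and -0.16. Ebp, the sterol isomerase, and Tm7sf2, a sterol reductase, were not counted, with 4299, 5604 and 5494 for Ebp and 1311, 1323 and 1989 for Tm7sf2. Dhcr7 was lower at both later times, with 649.2, 340 and 482.5, and was not counted.

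The control genes did not follow together. Srebf2 read 924.4, 1638 and 2248, and Stard4 736.4, 1370 and 1784, and both were counted at 48 h. The other probe set of Srebf2, also bright, gave log2 differences of -0.06 at 24 h and 0.07 at 48 h, so the higher Srebf2 level was seen by 1 of 2 probe sets, while both other bright probe sets of Stard4 gave over 1 at 48 h (1.04 and 2.20). Insig1, the SREBP target that rose in pre-cDC, read 2654, 2711 and 2557, the last 0.964 times its 0 h level. Srebf1 read 3005, 2407 and 2779, and Scap 3445, 3706 and 5156, and neither was counted. Insig1 thus stayed level on these arrays while most sterol enzymes were higher.

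Among the fatty acid genes, all 4 desaturase genes were counted higher at 48 h. Scd2 read 1699, 4834 and 8521 at 0, 24 and 48 h, and Fads1 184.1, 857.9 and 1105. Fads2 read 63.2, 87.94 and 172.8. The other bright probe set of Fads1 gave -0.02 at 48 h and that of Fads2 -0.06. Scd1 read 36.61, 28.73 and 258.3, and was the 1 member counted higher at 48 h than at 24 h, but its other probe set gave 0.01 for that interval. The desaturase differences other than that of Scd2 were therefore not shared by all probe sets. Fasn read 1882, 3988 and 4433 and was counted at both times. Acly, Acaca and Elovl6 were not counted, with 8634, 8967 and 8713 for Acly, 1891, 2150 and 2690 for Acaca and 920.8, 777.6 and 757.7 for Elovl6. For Acly, 1 further bright probe set passed the 2-fold line, at 1.36 at 24 h and 1.14 at 48 h, and 2 others gave -0.04 and 0.37 at 24 h. Between 24 and 48 h, 1 member was counted higher and 1 lower, where 2.75% of all genes were higher and 0.89% lower.

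The RNA of proliferation genes and of cell type markers also differed between the monocyte arrays. The 19 proliferation genes summed to 118500, 54390 and 61560 at 0, 24 and 48 h, and 12 of them were counted lower at 24 h and 0 higher. The 6 primary granule markers summed to 23600, 1277 and 890.2, with 4 counted lower and 1 higher at 24 h. The 8 macrophage markers summed to 16520, 28880 and 30970, and the 10 dendritic cell markers to 20480, 85250 and 87120. Of the 10 dendritic cell markers, 8 were counted higher and 2 lower than at 0 h, both at 24 h and at 48 h. Erythroid markers summed to 1897, 2461 and 5900, megakaryocyte markers to 176.9, 10250 and 8555, and stromal and adipocyte markers to 2042, 2626 and 2934. These sums can rest on few genes. At 48 h against 0 h, 1 of 7 erythroid markers was counted higher and 1 lower (median log2 difference -0.18). Of 5 megakaryocyte markers 2 were counted higher and 0 lower (median 0.67), and of 9 stromal and adipocyte markers 0 were counted either way. The part of these shifts in the lipid gene differences was not tested.

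In the 7-day cultures few members differed. In adherent cells of GM-CSF against M-CSF cultures, 3 members were counted higher and 0 lower, where 3.37% of all genes were counted higher and 2.12% lower. Scd1 read 865 in adherent GM-CSF cells and 199.7 in M-CSF cells, a level 3.87 times as high (log2 difference 1.95), with 0.67 at its other probe set. Dhcr7 read 1190 in adherent GM-CSF cells and 299.9 in M-CSF cells (1.88), and Mvd 486 and 182 (1.28), with 1.17 at its other probe set. The other 27 members ranged from -0.23 for Msmo1 to 0.54 for Acaca. There is 1 array per culture fraction and no test.

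In non-adherent CD11c+ cells against adherent cells of the GM-CSF cultures, 1 member was counted higher and 0 lower, where 2.45% of all genes were higher and 1.28% lower. It was Pmvk, with 622.4 in CD11c+ cells and 241.1 in adherent cells (log2 difference 1.26). Others lay close to the line. Idi1 read 2741 in CD11c+ cells and 1385 in adherent cells (0.97), but its other bright probe set gave 0.14. Dhcr7 read 580.7 in CD11c+ cells and 1190 in adherent cells (-0.996). Elovl6 read 34.34 and 100.6, a level 0.5 times as high on the shifted scale that just missed the count. With 8 added before the log in place of 32, Hsd17b7, Dhcr7 and Elovl6 were counted lower as well. After median centring Dhcr7 and Elovl6 were, so that 1 member was higher and 2 lower. Scd1 was high in both GM-CSF fractions, at 1163 in CD11c+ cells and 865 in adherent cells.

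**Figure D4:**
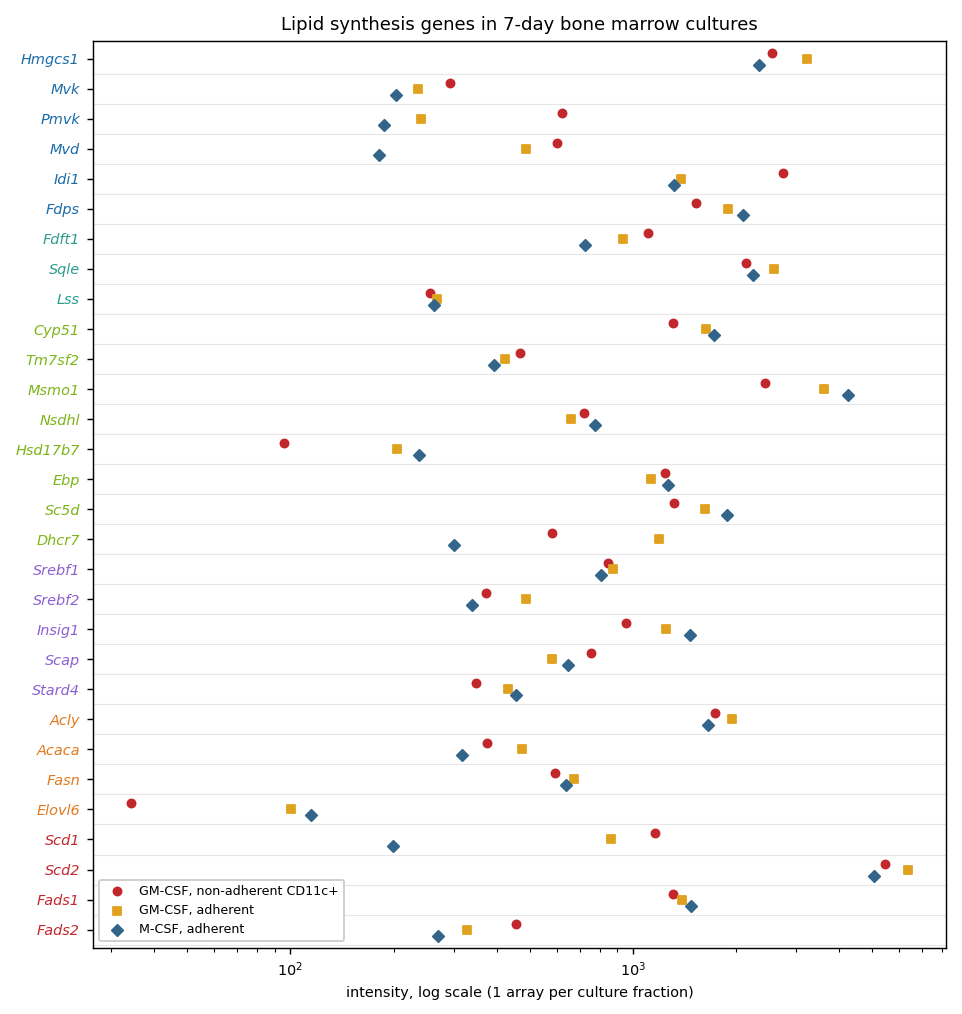
Intensity of the 30 measured genes in 3 culture fractions, 1 array each, on a log axis. For most genes the 3 symbols lie close together, while Scd1, Dhcr7 and Mvd are lower in M-CSF adherent cells and Pmvk is higher in CD11c+ cells at 622.4.

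The culture fractions differed in cell markers. Neutrophil markers summed to 7456 in CD11c+ cells, 26790 in adherent GM-CSF cells and 10000 in M-CSF cells, and all 6 were counted higher in adherent GM-CSF than in M-CSF cells. Macrophage markers summed to 28170 in CD11c+ cells, 30660 in adherent GM-CSF cells and 44150 in M-CSF cells, dendritic cell markers to 40560, 33940 and 13890, and proliferation genes to 14740, 22070 and 37820 in the same order. Their part in the lipid gene differences was not tested.

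Further genes of sterol and fatty acid synthesis were taken from a list of 28, of which 24 were measured. In pre-cDC against CDP 4 of them rose and 10 fell, where 14.4% of all genes rose and 18.8% fell. Tmem97, a sterol-responsive membrane protein, averaged 28.68 ± 0.919 in pre-cDC and 87.56 ± 0.198 in CDP (SD, n = 2 each), a log2 difference of -0.98 (limma adjusted p = 8.4e-06). It thus moved opposite to the sterol enzymes that rose there. Acot7, an acyl-CoA thioesterase, and Acsl3, an acyl-CoA synthetase, fell by 0.91 and 0.68 on the log2 scale (limma adjusted p = 7.48e-05 and 0.00254), and Lpin1, a phosphatidate phosphatase, rose by 0.70 (limma adjusted p = 0.000833). In GMP against CMP 7 rose and 4 fell, where 7% of all genes rose and 9.76% fell. They were led by Lpin1 at -1.11, with Elovl5, an elongase, at 0.65 and Tmem97 at 0.59. In CDP against CMP 1 rose and 2 fell, where 7.68% of all genes rose and 6.75% fell. In CDP against GMP 4 rose and 8 fell, led by Tmem97 at -1.26, where 15.9% of all genes rose and 12.1% fell.

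In monocytes at 48 h against 0 h, 6 of these 24 genes were counted higher and 2 lower. Over all genes 7.4% were counted higher and 6.19% lower. Acsl3 read 1015 at 48 h and 214.4 at 0 h, Slc25a1, the mitochondrial citrate carrier, 2718 at 48 h and 818.6 at 0 h, and Tmem97 450.6 at 48 h and 150.8 at 0 h. Lbr, the lamin B receptor, which also has sterol reductase activity, was lower, with 2178 at 48 h and 12350 at 0 h. Lbr thus stood apart from most members on the list of sterol enzymes.

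Of 14 genes of sterol efflux, storage and LXR function, 12 were measured. In pre-cDC against CDP 6 rose and 2 fell, where 14.4% of all genes rose and 18.8% fell. Cyp27a1, a mitochondrial sterol hydroxylase, averaged 1117 ± 274 in pre-cDC and 111.2 ± 7.98 in CDP (SD, n = 2 each), a log2 difference of 2.99 (SE 0.146, limma adjusted p = 8.1e-09). Plin2, a lipid droplet coat protein, and Npc1, which exports cholesterol from lysosomes, rose by 1.004 and 0.99 on the log2 scale (limma adjusted p = 0.000207 and 4.46e-05). Lpcat3, an LXR target that remodels phospholipids, fell by 0.96 (limma adjusted p = 2.12e-05). In GMP against CMP 1 rose and 3 fell, where 7% of all genes rose and 9.76% fell. Among those that fell was the cholesterol exporter Abca1, with 28.9 ± 3.9 in GMP and 151.9 ± 5.84 in CMP (-1.60, limma adjusted p = 7.47e-07).

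In monocytes the efflux genes did not move one way. At 48 h against 0 h, 3 of 12 were counted higher and 3 lower. Over all genes these shares were 7.4% and 6.19%. Ch25h, the oxysterol-producing hydroxylase, read 51.28 at 0 h, 636.5 at 24 h and 2169 at 48 h. Abca1 read 394.2, 614 and 2106 at these times. Apoe, an apolipoprotein that accepts cholesterol, read 4754, 362 and 138.9, and Mylip, an LXR-induced ligase, 1968, 465.7 and 482.1. In the cultures Ch25h read 99.86 in CD11c+ cells, 257 in adherent GM-CSF cells and 7.12 in M-CSF cells.

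The Spl array can be set beside the bone marrow pre-cDC arrays only by the rank of a gene among all genes on its array, since its scale differs and its labelled cell type is a bone marrow progenitor. Hmgcs1 ranked above 77.2% of genes on the Spl array and above 89.7% and 88.9% on the bone marrow pre-cDC arrays. Insig1 ranked above 73.8% on the Spl array, against 89.4% and 89.1%, and Sqle above 58.8%, against 79.1% and 78.7%. Fads1 ranked above 80.5% on the Spl array, against 63.5% and 62.8%, and Scd1 above 63.3%, against 29% and 12.6%. Members of the same steps went both ways. Pmvk of the mevalonate pathway ranked above 79.9% on the Spl array, against 62.1% and 62.9%. The desaturase gene Scd2 ranked above 85.5%, against 92.9% and 94.7%. These ranks come from 1 Spl array and have no test.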

How the data were processed

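RNA was labelled with the Affymetrix 3' IVT Express Kit, per the labels' protocols. The values deposited by the authors are intensities on a linear scale, 1 per probe set and array; the software, background correction and scaling are not given in the sources used here. Of 45037 probe sets, 34945 carried 1 gene, 932 several and 9160 none; only the first were used. Of 18193 genes, 18031 matched the RefSeq GRCm38.p6 table by Entrez ID. All columns belonged to a sample (0 did not).

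Values were taken as log2(intensity + 32). In R 4.3.3 with limma 3.58.1, 1 fit (lmFit and contrasts.fit, then eBayes allowing for an intensity trend) covered the 8 progenitor arrays in 4 groups, with 4 residual and 12.6 total degrees of freedom. Tests were two-sided, adjusted by Benjamini-Hochberg over all 18193 genes, threshold 0.05. The steps were tested on simulated data. Single arrays were compared without a test, and only within the monocyte or culture arrays. The number of arrays limits the precision. The package data.table (1.17.8), Python 3.11.15, pandas 2.3.3 and matplotlib 3.10.9 were also used. The files give no batch.

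All measured members are described. Of the other synthesis and efflux lists, up to 4 genes per comparison with the largest difference among those called or counted could be named. Of proliferation and marker lists up to 2 could be. The members and lists were chosen with earlier results of these data known. Alternatives were the added constant, the filter on dim genes, the fold, normalization, the choice of probe set, the intensity trend, a replicate block and leaving out each array.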

Additional observations from a re-analysis of the deposited data

How the results depend on the processing

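With the probe set selections and the other alternatives that were run, 0 of the called or counted members reversed. Single probe sets that were not selected did go the other way: of the other bright probe sets of called or counted members, 6 of 8 had the same direction in CDP against GMP, 11 of 12 in pre-cDC against CDP, 6 of 8 at 24 h against 0 h, 1 of 2 at 48 h against 24 h and 18 of 22 at 48 h against 0 h. Direction here is the sign alone, however small the difference, and several probe sets of 1 gene are counted separately. With 1 array left out in turn, 18 to 22 members passed the F test, 11 to 14 were called in pre-cDC against CDP, 6 to 10 in CDP against GMP, 2 to 5 in CDP against CMP and 5 to 8 in GMP against CMP. In a fit that leaves a group with 1 array, that array is assumed to vary like the other groups. In pre-cDC against CDP the call of Sqle was lost in 4 of 8 such fits, that of Fasn in 3, and those of Fads2, Scap and Scd2 in 1 each; in GMP against CMP those of Fads2 and Idi1 were lost in 3 and that of Fads1 in 2. In CDP against CMP Insig1 and Sc5d were lost in 3 and Cyp51 in 1, and in CDP against GMP Acaca and Insig1 in 6, Fdps in 5, and Idi1 and Nsdhl in 3. The remaining calls of each comparison held in all 8 fits.

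Whether the replicate numbers WT1 and WT2 pair the samples is not stated in the labels. Deviations of same-numbered arrays correlated at -0.02 to 0.18, not all above 0.1. With so few arrays per group, these correlations cannot decide whether same-numbered samples share a source. With the number as a replicate block, 21 members passed the F test, 14 were called in pre-cDC against CDP, 12 in CDP against GMP, 5 in CDP against CMP and 9 in GMP against CMP.

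At 4-fold in place of 2-fold the counts were 0 for adherent GM-CSF against M-CSF cells and 0 for CD11c+ against adherent cells. They were 3 for 24 h against 0 h, 1 for 48 h against 24 h and 7 for 48 h against 0 h. Over all 18193 genes the counts at 4-fold, in the same order, were 263, 132, 728, 143 and 868. The count for CD11c+ against adherent cells, 1 in the report, was 4 with 8 added before the log, 3 after median centring and 2 after quantile normalization. The count for 48 h against 24 h, 2 in the report, was 1 with the brightest probe set of the monocyte arrays (Scd1 lost) and 1 with the mean of all probe sets (Mvd lost). With that mean, 16 members were counted at 48 h against 0 h in place of 20. The stricter fold lowers these counts by its construction. The cause of the other changes was not tested. Dim members, such as Tm7sf2 and Scd1 in progenitors, lie below the array median, which limits what a comparison can show.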
